A study of Gallus gallus with 4 samples.

Results

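The sites described here are CTCF binding sites on the small chromosomes of the chicken that were called in each of 3 chromatin immunoprecipitation libraries. Peaks of the lists that overlapped by 1 bp or more were merged into sites, and a site was kept when every list contributed a peak to it and it lay on chromosomes 12 to 19 or 21 to 28. This gave 1021 shared microchromosome sites, of 15733 sites in all and of 3344 on these 16 chromosomes. Chromosomes 11 and 20, which are also small, were not included. The libraries were 1 each from non-induced HD3 cells, from HD3 cells induced to differentiate, and from DT40 cells. HD3 is clone A6 of LSCC, an erythroblast line of the chicken that avian erythroblastosis virus has transformed, so both HD3 states share 1 clone and its virus. Induction used the kinase inhibitor iso-H-7 with HEPES at raised temperature under air. DT40 (CRL-2111) is a chicken lymphoid line, grown in the same medium with β-mercaptoethanol added. All 3 precipitations used 1 rabbit antibody raised against residues 86 to 233 of chicken CTCF. Peak lists hold no expression values, so the identity of the cells could not be checked against markers.

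CTCF is a zinc finger protein that binds a long GC-rich motif and holds cohesin at the base of chromatin loops, and its sites often act as insulators between neighbouring genes. Many of its sites are occupied in most cell types of an animal, whereas others vary with the cell type, in part with DNA methylation. Chicken chromosomes fall into large macrochromosomes and many small microchromosomes, which are richer in genes, in GC bases and in CpG islands than the large ones. Sites are given here by galGal4 coordinates, counted from 1, and their sequences and genes were not analysed here.

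The lists differed in length, with 8768 peaks from HD3 cells before induction, 4820 after it and 13574 from DT40. Each peak carries a score that is the authors' own, on a scale not stated in the files, with a lowest value of 50.0 over all lists. Read counts are not given, the depth is therefore unknown, and a site missing from a list was only not called there. No group had a replicate, so there is no test between libraries or conditions. Intervals in brackets are 95% intervals, exact Clopper-Pearson for shares and exact Poisson for densities. They cover counting error only and treat sites as independent, which neighbouring sites are not. The sites were chosen by the peak calls themselves, that is by a score past the caller's limit in all lists, so counts, shares and scores are given as a description.

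Taken over the 16 microchromosomes, shared sites were denser and made up a larger part of the CTCF sites than over chromosomes 1 to 10, though single chromosomes of both kinds overlapped. Of the 3344 sites on the 16 microchromosomes, 30.5% [28.97 to 32.1] were called in all 3 lists, against 23.4% of all sites in the series and 22.1% [21.3 to 22.9] of the 10511 sites on chromosomes 1 to 10. Part of that gap lay on chromosome 2, where 12.3% of 3013 sites were shared. Leaving out chromosome 2, which was decided with the data in view, the large autosomes reached 26.0% [25.0 to 27.02]. The interval for the 16 microchromosomes lay above both. With chromosomes 11 and 20 added, the microchromosome share was 27.3% [26.0 to 28.6], and its interval overlapped that of the large autosomes without chromosome 2. The smaller of the large autosomes were also close to the microchromosomes, with shares of 29.9% on chromosome 6, 31.6% on chromosome 9 and 30.9% on chromosome 10. The density was 7.41 shared sites per Mb [6.97 to 7.88] on the microchromosomes and 3.11 per Mb [2.98 to 3.23] on chromosomes 1 to 10, with the largest peak end in any list taken as the length of a chromosome. Sites of any kind, shared or not, were also denser on the microchromosomes, with 3344 over 137.7 Mb against 10511 over 747.3 Mb. The higher density was therefore not particular to shared sites.

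Chromosome 26 was the densest of the microchromosomes, with 72 shared sites or 13.7 per Mb [10.7 to 17.2]. It was followed by chromosome 25 with 25 sites (11.4 per Mb [7.39 to 16.8]) and chromosome 23 with 62 sites (10.8 per Mb [8.32 to 13.9]), and the intervals of these 3 overlapped. Chromosome 12, the longest of them, was the sparsest with 85 sites or 4.28 per Mb [3.42 to 5.29]. It was the only microchromosome below the densest of the large autosomes, chromosome 9 with 5.59 per Mb, and it also lay below chromosomes 6 and 10, with 4.38 and 5.38 per Mb. The remaining 12 microchromosomes lay between 6.54 per Mb on chromosome 13, which had the most shared sites (116), and 9.75 per Mb on chromosome 24. Neighbours in this order had overlapping intervals, except chromosomes 12 and 13, whose intervals were apart.

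The share of sites called in all lists was more even than their density. It was highest on chromosome 23, with 40.0% [32.2 to 48.2] of 155 sites, and on chromosome 26, with 38.1% [31.1 to 45.4] of 189. On 13 other microchromosomes it lay between 25.7% on chromosome 28 and 34.5% on chromosome 19. Chromosome 16, which carries the chicken major histocompatibility complex and spans only 0.484 Mb in these lists, stood apart. Only 4 of its 50 sites were shared (8.00% [2.22 to 19.2]), and 41 of the 50 were called in DT40 alone.

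**Figure D1:**
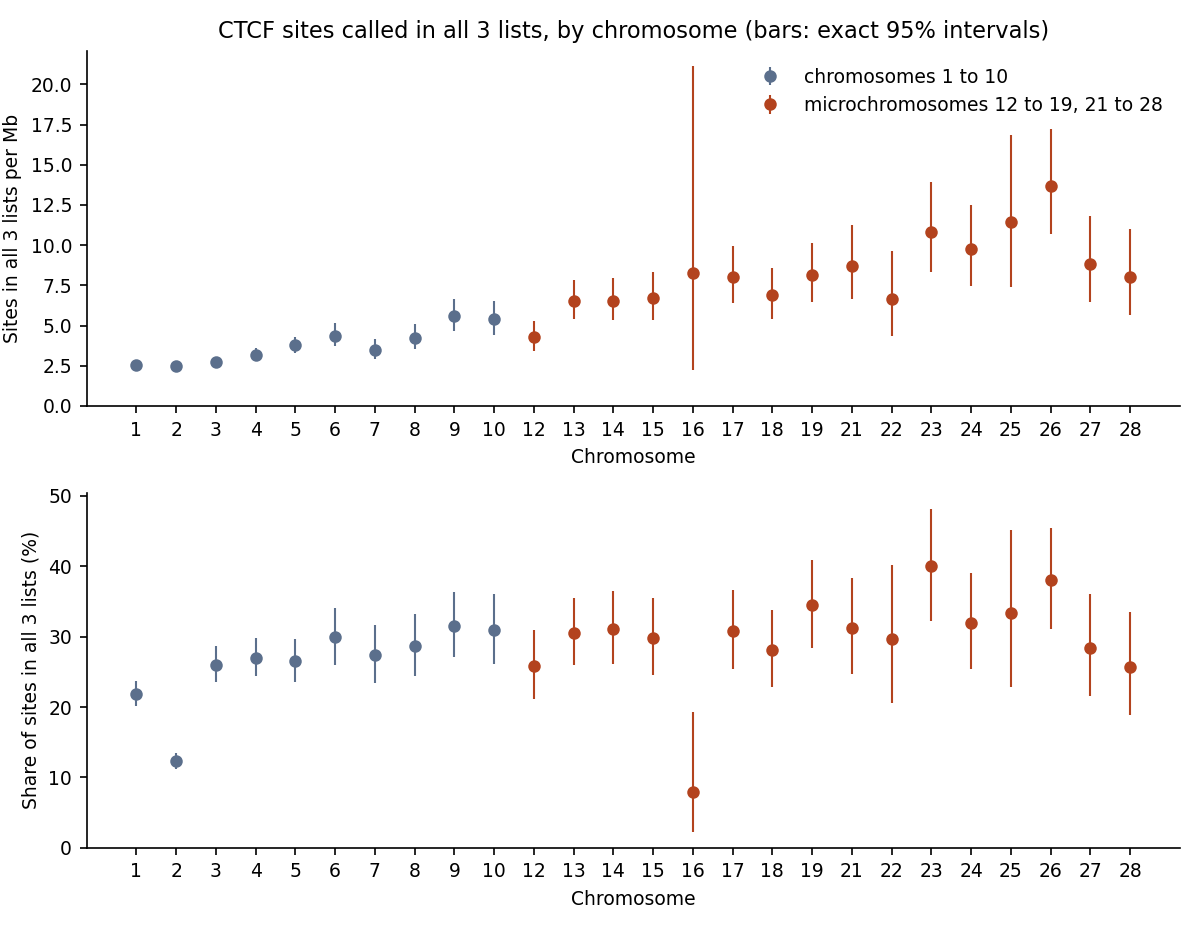
Sites called in all 3 lists per Mb (top) and as a share of all sites in percent (bottom), for chromosomes 1 to 10 (blue) and the 16 microchromosomes (red); points are single chromosomes and bars are exact 95% intervals. Densities rise from 2.49 per Mb on chromosome 2 to 13.7 on chromosome 26, whereas shares are more even apart from the low values of chromosomes 2 and 16.

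Each list was shared to a different extent on the microchromosomes. Of the 1280 sites called in induced HD3 there, 79.8% [77.5 to 81.9] were called in all lists, against 47.6% [45.4 to 49.7] of 2147 sites in non-induced HD3 and 35.8% [34.0 to 37.6] of 2852 sites in DT40. The same 1021 shared sites are divided by the sites of each list in turn. The order of these shares is thus the reverse of the order of the site counts by arithmetic, and is no separate result. Where non-induced HD3 and DT40 both had a call, so did induced HD3 in 60.2% of cases [57.8 to 62.5], against 54.1% [52.5 to 55.6] on chromosomes 1 to 10. Where both HD3 states had a call, DT40 did too in 85.1% of cases [82.9 to 87.1], and the interval overlapped that of the large autosomes, 83.3% [81.9 to 84.7].

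The peaks of the 3 libraries fell on the same short stretch of DNA at nearly every shared microchromosome site. Midpoints of the induced and non-induced HD3 peaks were a median of 36.5 bp apart (quartiles 16.5 and 68.5 bp), and midpoints of the DT40 and non-induced HD3 peaks 40.5 bp (18.0 and 77.5 bp). Between induced HD3 and DT40 the median was 36.5 bp (17.0 and 63.0 bp). At 752 sites (73.7% [70.8 to 76.3]) all 3 midpoints lay within 100 bp of one another. These offsets are small beside the peaks, whose median lengths were 1245 bp before induction, 661 bp after it and 807 bp in DT40. Every one of the 1021 sites had bases covered by a peak of each list, and this common stretch had a median length of 647 bp (quartiles 584 and 716 bp). No shared microchromosome site was thus a chain of neighbouring peaks without a stretch in common. Shared sites on chromosomes 1 to 10 had similar offsets, with medians of 32.0, 36.5 and 34.5 bp for the same pairs of lists. All 3 midpoints lay within 100 bp at 78.5% of them.

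The peaks were nested. The induced HD3 peak lay wholly inside the non-induced one at 1018 of 1021 sites, and the DT40 peak lay inside the non-induced one at 993. The induced peak lay inside the DT40 peak at 679 sites (66.5%) and the reverse held at 51. A short peak that shares its centre with a much longer one lies inside it. The nesting thus follows largely from the lengths and offsets given above and is no separate result. Why the lists differ in peak length was not tested. Nesting was similar on chromosomes 1 to 10, where the induced peak lay inside the non-induced one at 2316 of 2321 shared sites and the DT40 peak at 2214. At the 1007 microchromosome sites with 1 peak in each HD3 list, the non-induced peak reached past the induced one by a median of 291 bp on the left and 288 bp on the right. The medians of the left and right sides over these sites were thus close, although single sites could be lopsided. Longer peaks also had higher scores within each list. From the lowest 25% to the highest 25% of scores, median lengths went from 1182 to 1351 bp before induction, from 605 to 756 bp after it and from 669.5 to 924 bp in DT40.

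**Figure D2:**
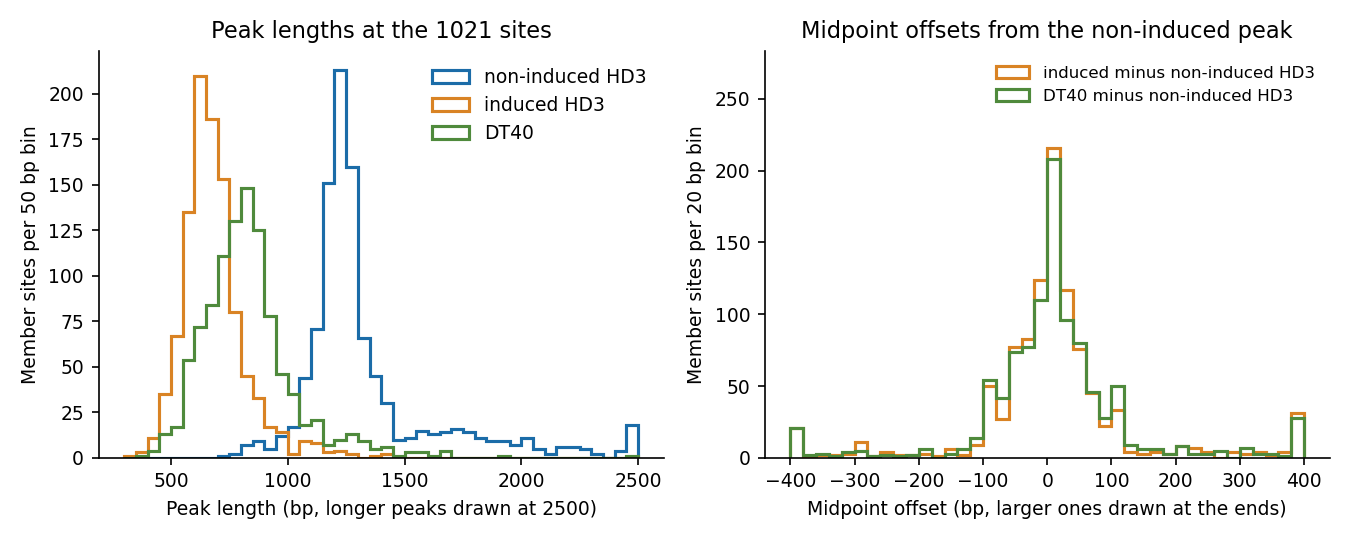
Left, lengths in bp of the highest-scored peak of each list at the 1021 shared microchromosome sites, as sites per 50 bp bin; right, midpoint offsets in bp of induced HD3 and DT40 peaks from the non-induced HD3 peak, per 20 bp bin. Lengths differ by list, with medians of 1245, 661 and 807 bp, while both sets of offsets centre on 0 with medians in size of 36.5 and 40.5 bp.

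A minority of sites had a long non-induced peak with a displaced centre. The non-induced peak was longer than 1500 bp, a bound set after the lengths were seen, at 178 shared microchromosome sites (17.4% [15.2 to 19.9]) and at 260 of 2321 shared sites on chromosomes 1 to 10 (11.2% [9.95 to 12.6]). At these 178 sites its midpoint was a median of 257 bp from that of the induced peak and 219 bp from that of DT40. The induced and DT40 midpoints were only 47.0 bp apart there. At the 260 sites on chromosomes 1 to 10 the same medians were similar, at 252, 224.5 and 55.0 bp. A longer peak leaves more room for its midpoint to lie away from those of peaks inside it. The larger offsets thus follow in part from the split by length. DT40 had more than 1 peak at 36 of the 178 (20.2% [14.6 to 26.9]), against 4 of the 843 other sites (0.474% [0.129 to 1.21]). Induced HD3 had more than 1 peak at 14 of the 178 and at 0 of the 843, which allows a share of up to 0.437%. Separate peaks of 1 list join in a site only where a peak of another list bridges them. A long non-induced peak can do so more readily than a short one. These counts of several peaks thus follow largely from the merging rule and are no separate result. The median non-induced score was 317 at the 178 sites and 189 at the others, so length and score rose together here too.

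The longest shared site covered 4865 bp of chromosome 24, at 5207862 to 5212726. One non-induced peak spanned it whole, with 1 induced peak of 682 bp and 2 DT40 peaks inside. The next was 3225 bp long, on chromosome 27 at 3364040 to 3367264, where 1 non-induced peak covered 2 peaks in induced HD3 and 2 in DT40. The third, on chromosome 16 at 446166 to 449307, was long in DT40 as well, with a peak of 2877 bp against 990 bp in induced HD3.

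Shared microchromosome sites ranked high within the non-induced HD3 and DT40 lists and near the middle of the shorter induced list. Their median score percentile was 78.9 before induction of HD3 (quartiles 62.1 and 91.4), 60.1 after it (34.2 and 83.0) and 83.0 in DT40 (66.7 and 92.0). On the microchromosomes, 79.8% of induced HD3 sites were shared, against 47.6% in non-induced HD3 and 35.8% in DT40. The larger the shared part of a list, the closer its median is held to the middle. The order of the lists thus follows at least in part from these shares and is no separate result. For shared sites on chromosomes 1 to 10 the medians were lower in every list, at 72.8, 53.7 and 77.6. Microchromosomes also held more of the high scores over all their sites, shared or not: 15.1% of their non-induced HD3 sites fell among the highest-scored 10% of that list, against 8.33% of those on chromosomes 1 to 10. The same shares were 13.5% and 8.91% in induced HD3 and 12.4% and 7.90% in DT40.

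At equal score, sharing on microchromosomes was close to that on the large autosomes for the HD3 lists. Sites of each list were split by score into 10 bins of equal size, and the share called in all lists was compared bin by bin. For non-induced HD3 the intervals of microchromosomes and chromosomes 1 to 10 overlapped in 10 of 10 bins, from 5.33% and 7.42% in the lowest to 93.5% and 92.8% in the highest. Giving the large autosomes the score distribution of the microchromosomes moved their share from 39.9% to 47.8%, beside 47.6% on the microchromosomes. For induced HD3 the intervals also overlapped in 10 of 10 bins. The share for the large autosomes moved from 76.9% to 78.5%, beside 79.8%.

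For DT40 sites the intervals were apart in 2 of 10 bins, the highest-scored pair. In the lower of the pair 74.0% [69.1 to 78.5] of microchromosome sites were shared against 59.6% [56.1 to 63.0] on chromosomes 1 to 10, and in the upper 87.9% [84.0 to 91.1] against 80.8% [77.7 to 83.6]. Over all bins the matched share for the large autosomes was 32.0%, below the 35.8% of the microchromosomes. Without chromosome 2 the matched share was 38.4%, above that of the microchromosomes, so the direction of the DT40 difference at equal score turned on that chromosome. The shares of single bins include chromosome 2 and are not given without it.

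**Figure D3:**
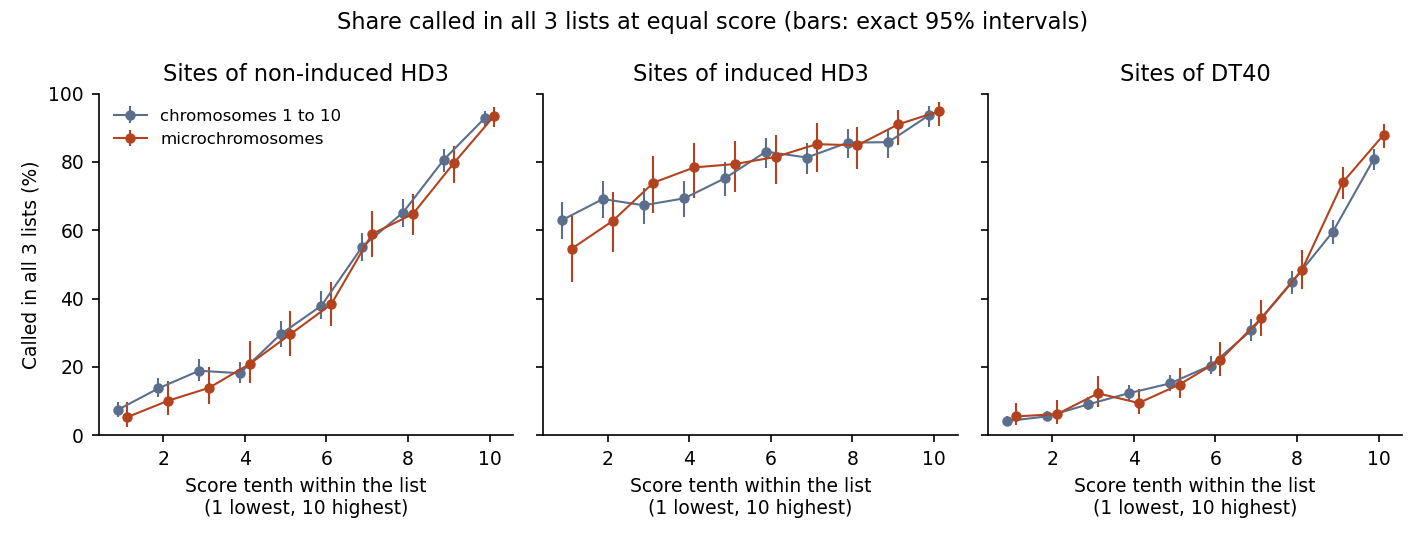
Share of sites called in all 3 lists (percent) by score bin (10% of sites each) within the list named above each panel, for chromosomes 1 to 10 (blue) and the 16 microchromosomes (red), with exact 95% intervals. The intervals overlap in every bin for both HD3 lists and part in the highest 2 bins for DT40, at 74.0% against 59.6% and 87.9% against 80.8%. Chromosome 2 is included in the blue points, and no bin is shown without it.

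The same few sites led all lists. To compare lists of unequal length, the 1021 sites were ranked by score among themselves in each list, with rank 1 the highest. The site with the best showing overall lay on chromosome 21, with bases 3032222 to 3033206 covered by all lists. Its score was 2071 before induction, 1407 after it and 1868 in DT40, for ranks of 1, 1 and 2. The next lay on chromosome 23 at 5432304 to 5433238, with scores of 1643, 765 and 1944 in the same order and ranks of 3, 2 and 1. These sites were first or second in both induced HD3 and DT40.

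The site on chromosome 19 at 6618810 to 6620076 scored 1584, 666 and 1807 and ranked 4, 6 and 3. On chromosome 12, bases 4600430 to 4601293 scored 1216, 647 and 1408 and ranked 8, 8 and 7. A site on chromosome 18 at 9165626 to 9166420 scored 1196, 653 and 1682 and ranked 10, 7 and 4. It was 1 of the 9 shared sites with more than 1 peak in both induced HD3 and DT40, and the nearest other shared site lay 91.3 kb away. These 5 sites kept a rank of 10 or better in every list.

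High ranks were reached on most microchromosomes. The leading site of chromosome 13, at 9924974 to 9926141, was second in non-induced HD3 with a score of 1891 and ranked 15 and 13 in induced HD3 and DT40. That of chromosome 15, at 7970266 to 7971050, ranked 6, 17 and 6. That of chromosome 26, at 3416511 to 3417468, ranked 12, 20 and 8. All 3 were among the highest 20 in each list.

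Chromosomes 24, 27, 28 and 17 also had leading sites near the top of every list. On chromosome 24 it lay at 1495533 to 1496433 with ranks of 23, 12 and 12. On chromosome 27 it lay at 5205349 to 5206399, at the far end of the chromosome as covered by peaks, with ranks of 17, 16 and 5. On chromosome 28 it lay at 1711540 to 1712417 with ranks of 18, 21 and 17, and another shared site lay 3.43 kb away. On chromosome 17 a long common stretch of 1417 bp, at 5127752 to 5129168, ranked 7, 26 and 16.

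The leading sites of the other chromosomes were less even or lower. On chromosome 14, bases 2583019 to 2583665 ranked 9 in non-induced HD3 and 11 in DT40 but 52 after induction, with scores of 1196, 1331 and 311. On chromosome 16, bases 55699 to 56391 ranked 47, 29 and 14. The leading site of chromosome 22, at 2256018 to 2256723, ranked 188, 165 and 111, and that of chromosome 25, at 581851 to 582554, ranked 193, 268 and 182. In any single list, the best rank reached on chromosome 25 was 87 before induction, 157 after it and 118 in DT40, although the chromosome was among the densest in shared sites.

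Across the 1021 sites, ranks were related between all pairs of lists. Spearman's rho was 0.75 between the HD3 states, 0.65 between non-induced HD3 and DT40, and 0.68 between induced HD3 and DT40. For the 2321 shared sites on chromosomes 1 to 10 it was 0.72, 0.62 and 0.59 in the same order. The points are sites of the same 3 libraries and not replicates, so rho is a description without a p-value. Of the 103 sites in the highest 10% of each list, 54 were in the highest 10% of all lists. Of the 102 in the lowest 10% of each list, 13 were in the lowest 10% of all. Sites that were weak enough to miss the caller's limit in any list were not kept, so the low end of each ranking is cut off and these counts are not comparable.

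Individual sites changed place by large steps. A shift of more than 25 percentile points between the HD3 states was seen at 209 sites, 100 upward after induction and 109 downward. Between non-induced HD3 and DT40 it was seen at 262, with 125 higher in DT40 and 137 lower. With 1 library for each, shifts in rank cannot be told apart from the error of the libraries.

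The shifts named next are the largest among the 976 sites with 1 peak from each list. Between the HD3 states, the largest upward shift after induction was on chromosome 17 at 8687962 to 8688422, from rank 1020 (score 50.1) to rank 356 (score 132), with rank 598 in DT40. On chromosome 14, bases 4901879 to 4902468 went from rank 901 to 251. The largest downward shifts were on chromosome 22 at 2235869 to 2236480, from rank 101 (score 462) to 891 (score 60.1), and on chromosome 23 at 1635181 to 1635860, from rank 55 to 833. Both of the sites that moved down had non-induced peaks of over 1800 bp, of 1812 and 1826 bp.

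Between the cell lines, a site on chromosome 27 at 4700578 to 4701130 had the largest step up in DT40. It ranked 979 and 622 in HD3 before and after induction and 68 in DT40, with scores of 75.2, 84.5 and 693. Next was a site on chromosome 14 at 13662051 to 13662908, with the lowest non-induced score of all shared sites (50.1) and a DT40 rank of 115. Relative to induced HD3, the largest steps up in DT40 were on chromosome 16 at 763 to 1390 (rank 947 to 162) and on chromosome 17 at 410692 to 411225 (rank 1002 to 282).

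In the other direction, a site on chromosome 13 at 6691463 to 6691980 was strong in both HD3 states and weak in DT40. Its scores were 483 and 343 in HD3 before and after induction, for ranks of 94 and 40, and 61.7 in DT40, for rank 1004. It was also isolated, with the nearest other shared site 467 kb away. On chromosome 18, bases 2155113 to 2155698 showed the same pattern, with ranks of 141 and 57 in HD3 and 1009 in DT40. On chromosome 27, bases 3074107 to 3074817 went from rank 88 in non-induced HD3 to 957 in DT40, but ranked only 669 in induced HD3.

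**Figure D4:**
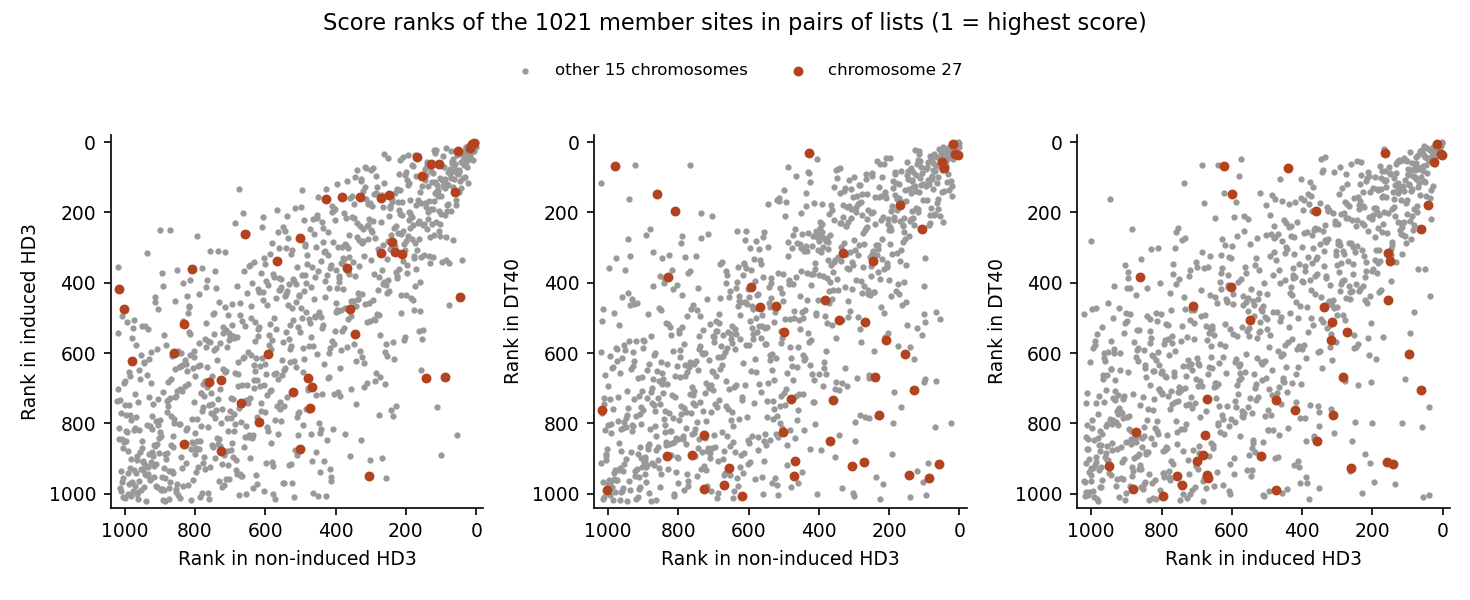
Score ranks of the 1021 shared microchromosome sites for each pair of lists (1 is the highest score, placed at the upper right); each point is a site, with the 46 sites of chromosome 27 in red. Points crowd the diagonal at high ranks and spread at low ranks, and many red points lie below the diagonal in both panels that have DT40 on the vertical axis. The caller's limit cuts off the low end of each ranking, so the spread at high and low ranks is not comparable.

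Chromosome 27 stood out in DT40. Its 46 shared sites had a median rank percentile of 63.3 before induction and 61.9 after it, but 37.9 in DT40. The median difference of DT40 from non-induced HD3 was -13.2 percentile points (quartiles -41.0 and 0.759), with 34 of 46 sites lower, and from induced HD3 it was -18.7 points, again with 34 of 46 lower. Between the HD3 states the median difference was 0.54. On the 14 other microchromosomes without chromosome 16, which has only 4 sites, the median difference of DT40 from non-induced HD3 lay between -3.53 and 8.42 points, and from induced HD3 between -1.96 and 6.91. This chromosome and the bound used next were chosen after the values were seen.

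The lower DT40 ranks lay in the first 4 Mb of chromosome 27. There DT40 ranked lower than non-induced HD3 at 28 of 31 shared sites (median -26.3 points) and lower than induced HD3 at 29 of 31 (median -22.9 points). Beyond 4 Mb it ranked lower at 6 and 5 of 15, with medians of 1.67 and 13.0 points. The HD3 states differed by medians of 0.196 and 2.64 points in these stretches. Among 38 segments of 1 Mb with at least 10 shared sites on the other microchromosomes, the lowest median difference of DT40 from non-induced HD3 was -9.99 points, against -38.0 and -25.1 for the 2 such segments in the first 4 Mb of chromosome 27.

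Single sites of that stretch show the pattern. Bases 1740357 to 1741042 scored 556 before induction (rank 59) and 211 after it (rank 141), but 106 in DT40 (rank 916). Bases 1087508 to 1088170 ranked 271 and 159 in HD3 and 911 in DT40. The strongest sites of the stretch were lower in DT40 as well: bases 1429762 to 1430657 ranked 13 and 4 in HD3 and 34 in DT40, and bases 2774573 to 2775519 ranked 5 and 3 in HD3 and 36 in DT40. Beyond 4 Mb, bases 4911686 to 4912169 ranked 428 and 163 in HD3 and 30 in DT40.

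Counts of sites also varied along chromosome 27. The first 4 Mb held 68 sites called before induction, 55 after it and 67 in DT40, shared or not. Beyond 4 Mb there were 28, 17 and 56. The first Mb, with only 1 shared site, was unlike the rest of the first 4 Mb, with 7, 9 and 23 sites in the same order. What sets the DT40 values apart along this chromosome was not tested.

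**Figure D5:**
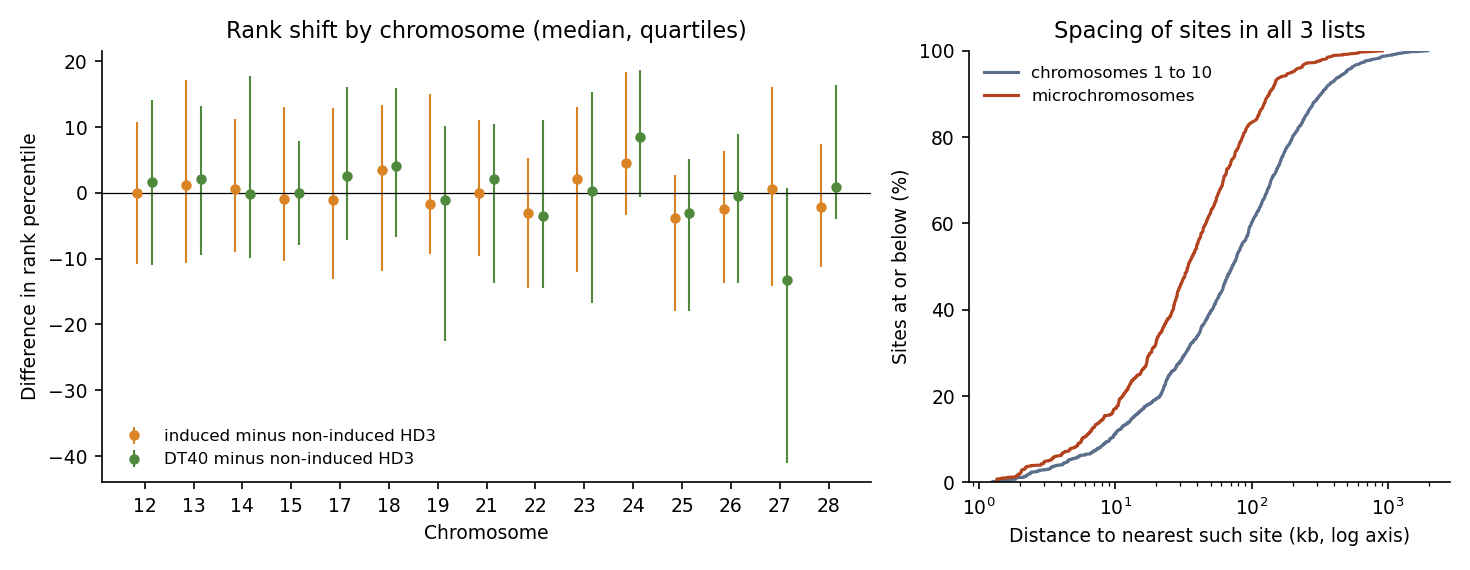
Left, difference in rank percentile of induced HD3 (orange) and DT40 (green) from non-induced HD3 at the shared sites of each microchromosome other than 16, as medians with bars from the lower to the upper quartile; right, cumulative share of shared sites (percent) by distance to the nearest other shared site (kb, log axis). Chromosome 27 has the lowest DT40 median, at -13.2 points, and shared sites lie closer together on microchromosomes (median 34.1 kb) than on chromosomes 1 to 10 (median 72.0 kb).

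Shared sites lay close together on the microchromosomes, as their density implies. The nearest other shared site was a median of 34.1 kb away (quartiles 15.2 and 72.7 kb), against 72.0 kb on chromosomes 1 to 10 (25.0 and 165 kb). Another shared site lay within 10 kb for 175 of 1021 (17.1% [14.9 to 19.6]) on the microchromosomes and for 260 of 2321 (11.2% [9.95 to 12.6]) on the large autosomes. The closest pair had midpoints 1.34 kb apart. Of the 100 kb windows with at least 1 shared site, 399 held 1, 170 held 2, 64 held 3, 17 held 4, 2 held 5 and 2 held 6.

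Both windows with 6 shared sites lay on chromosome 24. In the window from 300001 to 400000, 6 of 9 sites were shared, and the strongest, at 392412 to 392990, ranked 285 before induction, 97 after it and 122 in DT40. Its weakest, at 384489 to 385171, ranked 895, 986 and 895. In the window from 5600001 to 5700000, 6 of 7 sites were shared, and bases 5683919 to 5684599 ranked 38, 53 and 37. A window on chromosome 21 from 4300001 to 4400000 held 5 shared sites of 7, and another on chromosome 19 from 5800001 to 5900000 held 5 of 6. Windows were picked by their counts, and ranks inside them were not compared with ranks elsewhere.

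Some shared sites lay just inside the caller's threshold in at least 1 list. The 3 lowest scores of shared sites in HD3 before induction were 50.1, 50.1 and 50.7, after it 50.0, 50.0 and 50.4, and in DT40 50.6, 51.6 and 52.3. A site at the limit in 1 list could be well inside in another: bases 8600127 to 8600579 of chromosome 15 scored 50.0 after induction, 106 before it and 278 in DT40. On chromosome 22, bases 1175962 to 1176347 were low in all, with scores of 87.0, 53.1 and 51.6.

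Other microchromosome sites were called in 2 of the lists, and their score in the missing list is not known. They were not all weak where called. The highest scores were 835 in DT40 for sites missing only from induced HD3 and 836 before induction for those missing only from DT40. For sites missing only from non-induced HD3 the highest was 3100, in DT40. The 675 sites missing only from induced HD3 had a median non-induced score of 87.2, against 206 for the shared sites, and a median DT40 score of 115, against 267. A peak of the induced list lay within 500 bp of 5 of them and within 1 kb of 16. The 179 sites missing only from DT40 had medians of 163 before and 77.8 after induction, against 206 and 100.2 for the shared sites, and 4 of them had a DT40 peak within 1 kb. The 39 sites missing only from non-induced HD3 had a median induced score of 58.2. A non-induced peak lay within 1 kb of 1 of them, so near misses by a short gap between peaks were few in all these groups.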

How the data were processed

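CTCF chromatin immunoprecipitation libraries were analysed from HD3 cells before and after induction and from DT40 cells, 1 per group; the HD3 input library was not used here. Per the submitters' processing notes, CASAVA 1.8.2, Bowtie2 and MACS were used with the build galGal4; for their parameters and controls, the sources used here name none. The authors deposited 1 peak list per library, with a start and an end in bp and a caller score of unstated scale. No peak was called on pooled libraries. Scores were ranked only within a list or among the 1021 sites, but 1 alternative applied a score minimum of 100 to all lists. It takes the scores of the lists as comparable, which the unstated scale gives no means to check. It kept 4820 of 8768 non-induced, 1928 of 4820 induced and 7443 of 13574 DT40 peaks.

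Peaks sharing at least 1 bp were merged by single linkage. Where a list had several peaks in a site, the highest-scored gave its score, length and midpoint. Merging placed 3500 of 3500 simulated sites in their class. The simulated sites lay far apart and the peaks of each overlapped by design, so this checked the code only. Closely spaced sites and long peaks that bridge others were not simulated. The rule for sites named in the text took the leading site of each chromosome by its worst rank, the extremes of score, length and rank difference, and the densest windows; the sites of chromosome 27 given beside its pattern were picked with their values known. The sites and lists were chosen with earlier results of these data known. Alternatives were other overlaps, score minimums, list lengths and chromosome sets. Work used Python 3.11.15, SciPy 1.17.1, matplotlib 3.10.9, NumPy 2.4.6 and pandas 2.3.3.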

Additional observations from a re-analysis of the deposited data

How the results depend on the processing

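The count of 1021 sites was 1021 with an overlap of at least 100 bp, 996 with midpoints within 500 bp, 1016 without peaks longer than 3000 bp and 890 with a reciprocal overlap of 50%. A score of at least 100 in every list left 488 sites, 22.8% of microchromosome and 16.7% of large-autosome sites, and 3.54 per Mb. Equal numbers of top-scored peaks left 732 sites, 38.7% and 29.4%, and 5.32 per Mb. Reciprocal overlap gave 23.6% and 18.0%. The microchromosome share stayed above that of the large autosomes in each of these settings. Adding chromosomes 11 and 20 gave 27.3% on microchromosomes, and leaving out chromosome 2, an alternative added after the data were seen, gave 26.0% on large autosomes. Median score percentiles over the peaks on the same chromosomes were 72.5 before induction of HD3, 55.9 after it and 79.1 in DT40. Within 20 kb, 32.9% of sites had another shared site. In all, 19 planned values, the counts given above other than 488 among them, stayed within their intervals, or within 1.5 times for counts. The other 14 planned values moved outside these bounds. Among them were the microchromosome shares of 23.6%, 22.8%, 38.7% and 27.3%, the densities of 3.54 and 5.32 per Mb, every median score percentile and the share within 20 kb. Fewer sites under stricter scores or shorter lists follow from their construction, as does the larger share within 20 kb. The percentiles over the same chromosomes were taken among peaks with more high scores, which lowers them. For the other shifts the cause was not tested. No paired analysis was possible because there is 1 library in each group, which also leaves no replicate to drop. The motif search and gene annotation were not run, since neither galGal4 sequence nor gene models were used here. The unknown depth limits any reading of a missing peak.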

Other observations

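Going along each microchromosome, the site after a shared site was itself shared in 34.1% of cases (346 of 1016, interval 31.1 to 37.1), and the site after any other site was shared in 29.1% (672 of 2312, interval 27.2 to 31.0). On chromosomes 1 to 10 these shares were 26.2% (interval 24.4 to 27.99) and 20.9% (interval 20.1 to 21.8). Chromosomes of unlike share were pooled here, from 12.3% on chromosome 2 to 31.6% on chromosome 9. On the microchromosomes the shares ran from 8.00% on chromosome 16 to 40.0% on chromosome 23. Pooling alone parts such shares to some extent, and the order of sites within single chromosomes was not tested. After a shared microchromosome site, a DT40-only site followed in 28.1% of cases, against 33.4% of all microchromosome sites. A site missing only from induced HD3 followed in 21.8%, close to the 20.2% of all microchromosome sites.

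The share was also counted by distance from the ends of the microchromosomes, as covered by peaks, and no test was run. Within 0.1 Mb of an end, 21.4% of 154 sites were called in all lists (interval 15.2 to 28.8), and within 0.5 Mb 25.3% of 542 (interval 21.7 to 29.2), against 30.5% of all microchromosome sites. Chromosome 16 spans only 0.484 Mb, so all of its 50 sites, 4 of them shared, lie within 0.5 Mb of an end. These are among the 542 sites, 137 of them shared, within 0.5 Mb, and are counted within 1.0 Mb as well. Their share of 8.00% lowers the shares given for both distances. The lower share within 0.5 Mb thus comes in part from chromosome 16. The shares near the ends were not computed without it, so the size of any difference apart from chromosome 16 is not given. Without it 30.9% of all microchromosome sites were shared. Within 1.0 Mb of an end, 27.9% of 939 sites were shared (interval 25.1 to 30.9), and this interval holds the 30.5% of all microchromosome sites. Of the 1021 shared sites, 262 thus lay within 1.0 Mb of an end, and the median distance was 2.11 Mb.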
